A study of Mus musculus with 2 samples.

Results

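Heat shock proteins and chaperones were examined in mouse bone marrow M-MDSC (monocytic myeloid-derived suppressor cells) induced without or with CHBP. The genes were chosen by symbol: the HSP70, HSP110, HSP90, small HSP, HSP60 and HSP10 genes, the DNAJ classes A, B and C, the subunits of the TRiC chaperonin, and the heat shock factors Hsf1 and Hsf2. Hspa5 was left out. This gave 94 entries of 34745 in the expression table, and 11 of them were pseudogene entries. HSP70 held 13 entries, HSP110 1, HSP90 3, the small HSPs 8, HSP60 and HSP10 9, DNAJ 47, TRiC 11 and the heat shock factors 2.

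Chaperones bind unfolded protein chains and let them fold without aggregating. HSP70 proteins hold short hydrophobic stretches in a cycle driven by ATP, which DNAJ proteins (J-domain proteins, also called HSP40) start by delivering the client and speeding ATP hydrolysis, and which HSP110 proteins reset by exchanging the nucleotide. HSP90 completes the folding of kinases and steroid receptors, HSP60 with its lid HSP10 folds proteins inside mitochondria, and TRiC is a ring-shaped chaperonin that folds actin and tubulin in the cytosol. Heat shock factor 1 is the transcription factor that switches on the inducible members when unfolded protein accumulates.

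The CHBP- cells came from bone marrow cultured for 7 days with GM-CSF, a growth factor for myeloid cells, and the CHBP+ cells from bone marrow given GM-CSF and CHBP, a cyclic peptide derived from erythropoietin, for the same time. M-MDSC, which the study defines as CD11b+Ly6G-Ly6C high, were then sorted by flow cytometry and their RNA was sequenced as 1 library per condition. The study's RNA sequencing methods name induced MDSC and do not give this gate. The strain label was C57BL/6 for the CHBP- library and C57BL/7 for the CHBP+ library, although the growth text of both libraries names C57/B6 mice and the study's methods name C57BL/6. Had the strains differed, strain and treatment could not be told apart. Neither the labels nor the methods used here gave a genetic modification for these cells, and the labels gave no CHBP dose, age or sex. The comparison asks how M-MDSC mRNA differs when CHBP is present during induction.

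The libraries held 16484504 (CHBP-) and 16280466 (CHBP+) counted reads, so that a gene without reads could still lie at up to 0.182 and 0.184 CPM (reads scaled to the library total), the level of 3 reads. Of 8 entries for monocytic markers, 8 reached 1 FPKM (reads divided by gene length and by the library total, in the usual units), 4 of them higher in CHBP+ and 4 lower, with a summed level of 650 FPKM in CHBP- and 739 FPKM in CHBP+. Itgam, which is listed in 2 entries, carried that rise, and without it the sum was 393 FPKM in CHBP- and 353 FPKM in CHBP+. The gating gene for Ly6C, Ly6c2, stood at 56.9 FPKM in CHBP- and 34.0 FPKM in CHBP+. Markers of other cells were present as well: the summed level went from 1276 to 581 FPKM for 4 globin genes, from 676 to 457 FPKM for 6 neutrophil genes, from 200.2 to 172 FPKM for 4 mast cell and basophil genes, from 25.8 to 17.0 FPKM for 3 B cell genes and from 127 to 158 FPKM for 4 dendritic cell genes, of which Itgax stood higher (107 and 142 FPKM), Ccr7 and Flt3 lower, and Zbtb46 below 1 FPKM. Of the 6 neutrophil genes, 5 were lower and 1 (Ltf) higher. S100a8 alone held 576 FPKM of their sum in CHBP- and 391 FPKM in CHBP+, while Ly6g stood at 2.19 and 2.12 FPKM. None of 5 T cell genes reached 1 FPKM. In RNA from a cell population, a smaller number of cells of a type and less RNA per cell cannot be told apart, and the part of these cells in the chaperone values was not tested.

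Among the genes with a promoter sequence, the longest match to the binding motif of heat shock factors lies where Hspd1 (HSP60) and Hspe1 (HSP10) begin, in opposite directions, on chromosome 1. It falls inside the deposited span of Hspd1 (55077835 to 55088243) and before that of Hspe1 (55088132 to 55091307). The heat shock element is built from repeats of GAA and its reverse complement TTC, each separated by a pair of bases. Promoter sequences from RefSeq (GRCm38.p6, 250 bases before to 50 bases from each start) were found for 51 of the 66 chaperone entries with at least 1 FPKM in a library. Hsp90aa1, Hsp90ab1, Hspa8 and Hsf1 were among those without one, so the motif was not looked for there. A run of 3 units, GAANNTTCNNGAA or TTCNNGAANNTTC, was found on either strand near the starts of 4 of these genes and of 0.662% of all 27025 genes in the table. At least 2 units, GAANNTTC or TTCNNGAA, which the longer run also contains, were found near the starts of 14 of the 51 (27.5%) and of 17% of all genes. The sequences are shown for the 4 genes with the longer run, in the direction of each gene's transcription and with the run of units in capitals.
Hspd1 (chr1:55088053-55088082, minus strand): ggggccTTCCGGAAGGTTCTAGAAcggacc
Hspe1 (chr1:55088053-55088082, plus strand): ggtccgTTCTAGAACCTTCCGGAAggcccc
Dnajb6 (chr5:29735844-29735872, plus strand): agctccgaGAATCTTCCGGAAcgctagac
Hsph1 (chr5:149636280-149636308, minus strand): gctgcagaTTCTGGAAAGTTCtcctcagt
Hspd1 and Hspe1 show the same 30 bases read from opposite strands, from -144 to -127 before an Hspd1 start and from -89 to -72 before an Hspe1 start. The run near Hsph1 lies after a listed start, at 16 to 28. Such a match is a description of letters in a window, not a bound site.

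Of the 94 entries, 66 reached 1 FPKM in one or both libraries, 16 had reads but stayed below 1 FPKM in both, and 12 had no read in either. Of the 11 pseudogene entries, Hspd1-ps3 and Dnajc19-ps were among the 66. By deposited FPKM, the highest mean levels were those of Hsp90ab1 (383 FPKM), Cct2 (235 FPKM), Hsp90b1 (207 FPKM), Hspa8 (144 FPKM), Hspa9 (140 FPKM) and Hspd1 (124 FPKM). That order depends on the gene length used: with FPKM computed on the longest GENCODE M1 transcript, Hspa8 (440 FPKM in CHBP-) and Hsp90b1 (353 FPKM) stood above Cct2 (250 FPKM), and Hsp90ab1 (927 FPKM) was again highest. Hsp90ab1 alone took 18.7% of chaperone reads in CHBP- and 18.1% in CHBP+.

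Most chaperones stood somewhat lower in the CHBP+ library, and few by much. The main value was the log2 ratio of CHBP+ over CHBP-, taken after 1 was added to each FPKM, so that changes of genes at low levels are understated. It was below 0 for 46 of the 66 entries (69.7%, against 53.7% of the 10948 genes of the table with at least 1 FPKM) and above 0 for 20, with a median of -0.13 against -0.028 over those genes. Together the 94 entries took 205764 reads (1.25% of the library) in CHBP- and 188305 reads (1.16%) in CHBP+, a CPM ratio of 0.927 (0.921 to 0.932). Here and below such ratios are CHBP+ over CHBP- with 95% Clopper-Pearson intervals, which cover counting error only.

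The counts past 1.5-fold refer to the log2 ratio with its pseudocount. Of the 66, 1 was at least 1.5-fold higher in CHBP+ (Dnajc13), where 3.42% of all genes with at least 1 FPKM were, and 1 was at least 1.5-fold lower (the pseudogene entry Dnajc19-ps), where 2.89% of those genes were. By CPM ratio, Dnajc25 was also past the line upward and Hspa1a downward, as given below. A second measure, the exact read test, set each gene's reads against the library totals in a binomial test (exact, two-sided), with p-values adjusted by Benjamini-Hochberg over all genes of 10 reads or more and a threshold of 0.05. By it 31 of the 66 were lower in CHBP+ (47.0%, against 27.8% of 10914 genes with at least 1 FPKM) and 9 were higher (13.6%, against 25.7%). That test compares these libraries and not the conditions, and no difference given here has a replicate check.

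The cytosolic HSP90 genes were lower in CHBP+. Hsp90ab1, the constitutive cytosolic HSP90, had 38499 reads (404 FPKM) in CHBP- and 34057 reads (362 FPKM) in CHBP+, a log2 ratio of -0.16 (adjusted p = 4.16e-48, exact read test). Hsp90aa1, its stress-inducible counterpart, had 9639 reads (89.0 FPKM) in CHBP- and 7663 reads (71.6 FPKM) in CHBP+, a log2 ratio of -0.31 (adjusted p = 2.42e-44, exact read test). Their CPM ratios, 0.896 (0.883 to 0.909) and 0.805 (0.781 to 0.830), had intervals that did not overlap, and the inducible gene stood further down. Of the 75-base windows of the longest Hsp90aa1 transcript, 67.0% occur elsewhere in the mm9 genome, so its reads may be shared with other places. Hsp90b1, the HSP90 of the endoplasmic reticulum (Grp94), differed least, with 18741 reads (211 FPKM) in CHBP- and 17866 reads (203 FPKM) in CHBP+ and a log2 ratio of -0.051 (adjusted p = 0.00237, exact read test). All 3 were lower by the test (100%, against 27.8% of all genes), and together they took 0.406% of reads in CHBP- and 0.366% in CHBP+.

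HSP70 genes were found in both directions. Of 10 with at least 1 FPKM, 4 were lower (40.0%, against 27.8% of all genes) and 2 higher (20.0%, against 25.7%) in CHBP+ by the exact read test, with a median log2 ratio of -0.14. Hspa8 (Hsc70), the constitutive cytosolic HSP70, had 22922 reads (153 FPKM) in CHBP- and 20016 reads (135 FPKM) in CHBP+, a log2 ratio of -0.18 (adjusted p = 1e-35, exact read test), and 69.3% of its windows occur elsewhere in mm9. The stress-inducible pair Hspa1a and Hspa1b, neighbours on chromosome 17 (34969190 to 34972156 and 34956436 to 34959238), stood far below it. Hspa1a had 225 reads (4.60 FPKM) in CHBP- and 137 reads (2.84 FPKM) in CHBP+, a log2 ratio of -0.55 (adjusted p = 3.28e-05, exact read test), and Hspa1b had 268 reads (5.80 FPKM) and 201 reads (4.40 FPKM), a log2 ratio of -0.33 (adjusted p = 0.00891, exact read test). The coding sequences of the pair are nearly the same: 54.8% of 75-base windows of the longest Hspa1a transcript and 55.8% of those of Hspa1b occur elsewhere in the mm9 genome, so reads may have been split between them. Summed, the pair had 493 reads in CHBP- and 338 in CHBP+, a log2 CPM ratio of -0.53 (-0.73 to -0.32).

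Not all other HSP70 genes shared that direction. Hspa9 (mortalin), the HSP70 of the mitochondrial matrix, had 11448 reads (139 FPKM) and 11540 reads (142 FPKM), a log2 ratio of 0.029 (adjusted p = 0.210, exact read test). Hspa4, an HSP110-like exchange factor, had 66.8 and 66.1 FPKM and a log2 ratio of -0.015 (adjusted p = 0.663, exact read test), and its CPM ratio lay between 0.956 and 1.02. Its paralog Hspa4l was higher in CHBP+, with 1420 reads (6.19 FPKM) in CHBP- and 1911 reads (8.43 FPKM) in CHBP+ and a log2 ratio of 0.39 (adjusted p = 9.58e-18, exact read test). Hspa13 (Stch), an HSP70 of the microsomal compartment, was also higher, at 6.81 and 7.84 FPKM with a log2 ratio of 0.18, and Hspa14, which works with a J-domain partner on ribosomes, was lower, at 9.62 and 8.49 FPKM with a log2 ratio of -0.16. Hspa1l and Hspa2, which are known best from the testis, had 1.15 and 2.86 FPKM in CHBP- and did not pass the test. Hspa4 and Hspa4l were counted with HSP70 because of their symbols. Hsph1, the only entry counted here as HSP110, went against the other genes with at least 1 FPKM that are listed below as heat-inducible. It had 1371 reads (7.37 FPKM) in CHBP- and 1605 reads (8.74 FPKM) in CHBP+, a log2 ratio of 0.22 (adjusted p = 1.79e-05, exact read test).

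**Figure D1:**
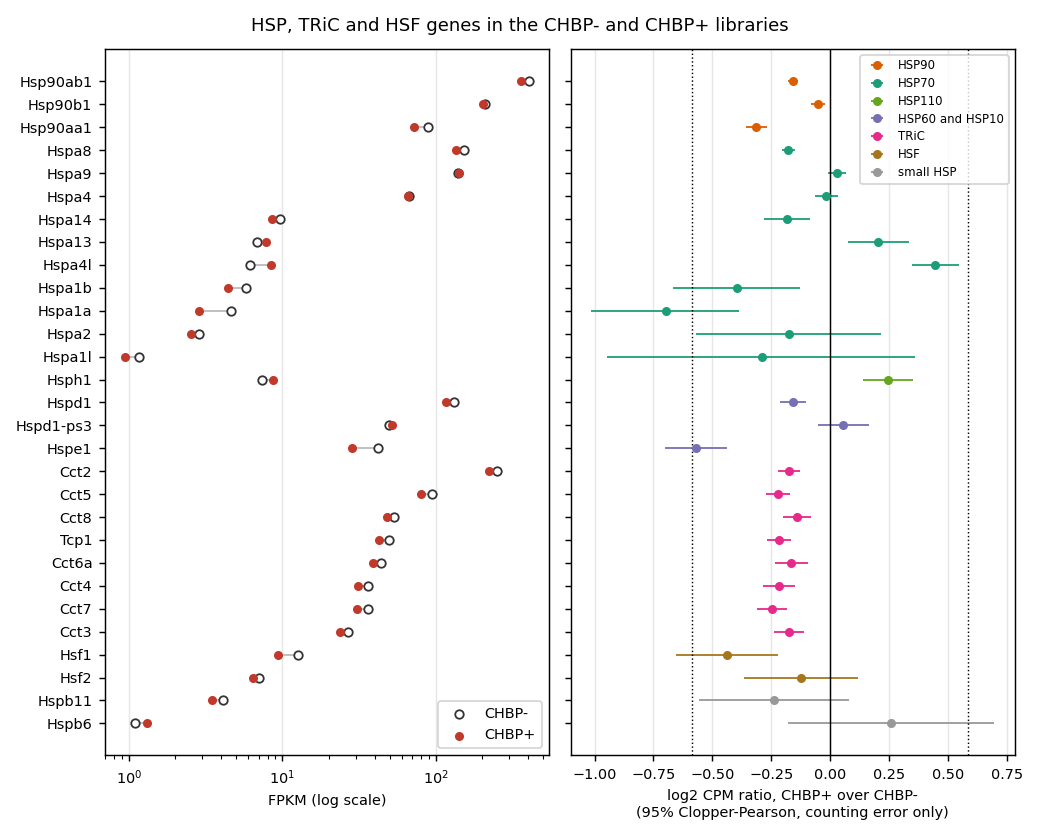
FPKM of each HSP, TRiC and HSF gene with at least 1 FPKM in a library (left, log axis; open circles CHBP-, filled circles CHBP+, 1 library each) and the log2 CPM ratio, CHBP+ over CHBP- (right; points with 95% Clopper-Pearson intervals for counting error, dotted lines at 1.5-fold). The 3 HSP90 and 8 TRiC genes lie left of 0, while Hspa4l, Hspa13 and Hsph1 lie right of it, and the intervals widen for genes with few reads such as Hspa1l.

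Both parts of the mitochondrial chaperonin were lower in CHBP+, and by different amounts. Hspd1, the barrel, had 5995 reads (131 FPKM) in CHBP- and 5307 reads (117 FPKM) in CHBP+, a log2 ratio of -0.16 (adjusted p = 4.12e-08, exact read test). Hspe1, the lid, had 1208 reads (42.2 FPKM) in CHBP- and 804 reads (28.4 FPKM) in CHBP+, a log2 ratio of -0.55 (adjusted p = 2.91e-17, exact read test). With the stretch printed above near both starts, their CPM ratios were 0.896 (0.864 to 0.930) and 0.674 (0.616 to 0.737), and the FPKM of Hspd1 over that of Hspe1 was 3.11 in CHBP- and 4.13 in CHBP+. Their spans overlap by 112 bases. Hspe1 is also the shorter gene, with a deposited length of 1738 bases against 2777. The pseudogene entry Hspd1-ps3 had 1405 and 1443 reads and a log2 ratio of 0.055 (adjusted p = 0.433, exact read test). Of the windows of the Hspd1 transcript, 44.3% occur elsewhere in mm9, and of those of the Hspe1 transcript 27.3%, so reads of both may be shared with other places. With the pseudogene entry added Hspd1 had 7400 and 6750 reads, a log2 CPM ratio of -0.11 (-0.16 to -0.067).

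The 8 subunits of TRiC differed little among themselves, by 0.10 on the log2 scale between the highest and the lowest ratio, against 0.26 for HSP90. That narrowness did not hold once a length trend was removed: the range was then 0.30 with deposited length and 0.27 with transcript length, against 0.30 and 0.26 for HSP90. Every subunit was lower in CHBP+ and passed the exact read test (100%, against 27.8% of all genes lower). The log2 ratios ran from -0.24 (Cct7) to -0.14 (Cct8), with a median of -0.19 and a largest adjusted p of 1.57e-05 (exact read test). Tcp1 (CCT alpha) had 6959 reads in CHBP- and 5915 in CHBP+. Cct2 had 8071 and 7059, Cct3 4169 and 3645, and Cct4 3770 and 3204. Cct5 had 6453 and 5464, Cct6a 3567 and 3144, Cct7 4670 and 3887, and Cct8 4807 and 4305. The CPM ratios ran from 0.843 to 0.907, and the counting intervals of all 8, on the log2 scale, held the range from -0.20 to -0.19. The summed reads were 42474 in CHBP- and 36627 in CHBP+, a ratio of 0.873 (0.861 to 0.885). Cct6b, a testis paralog, had 8 and 4 reads, and Cct8l1 and Cct3-ps1 had none.

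TRiC contains each subunit once per ring, yet the deposited levels of the subunits ranged 9.28-fold in CHBP-, from 26.9 FPKM (Cct3) to 250 FPKM (Cct2). The reads themselves ranged 2.26-fold. The deposited gene lengths behind the FPKM ran from 1962 bases (Cct2) to 9402 bases (Cct3), and they exceed the longest GENCODE M1 transcript for 7 of the 8. With FPKM computed on the length of that transcript, the range was 3.29-fold, from 75.8 (Cct3) to 250 (Cct2). That range depends on the transcript taken: for Cct3 the longest of any type had 3335 bases and the longest protein-coding one 1977. Levels set side by side as deposited FPKM carry the deposited lengths. In a ratio of the libraries without a pseudocount the length cancels, since it is the same in both. With 1 added to each FPKM it does not cancel fully: Dnajc25 had a log2 ratio of 0.55 and a log2 CPM ratio of 0.97. Ratios can still differ between short and long genes, as given below.

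**Figure D2:**
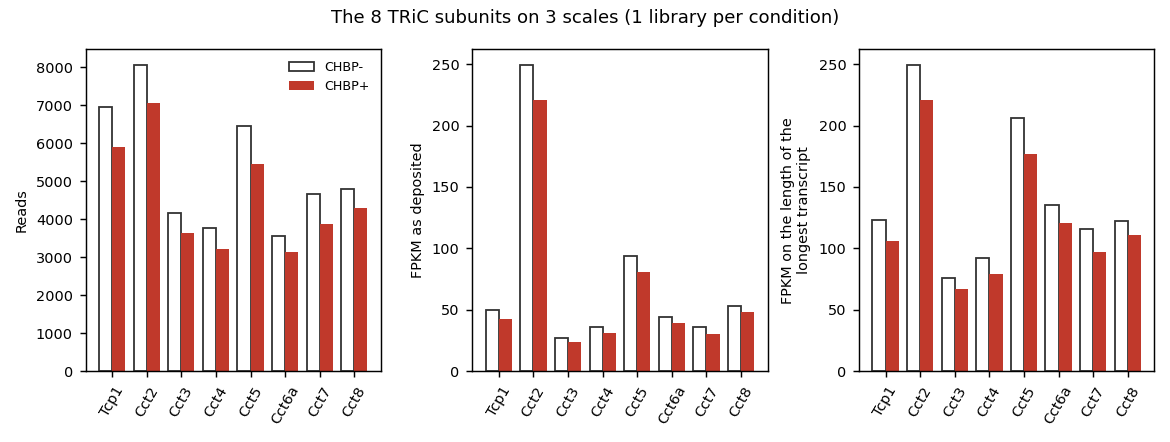
The 8 TRiC subunits in the CHBP- (open bars) and CHBP+ (filled bars) libraries, as reads, as deposited FPKM and as FPKM computed on the longest transcript; 1 library per condition, no error bars. CHBP+ is lower for each subunit on each scale, and Cct2 stands further above the others in FPKM than in reads.

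DNAJ genes, the largest family, were also found in both directions. Of 37 entries with at least 1 FPKM, 13 were lower (35.1%, against 27.8% of all genes) and 6 higher (16.2%, against 25.7%) in CHBP+ by the exact read test, and their summed reads, 39443 in CHBP- and 38868 in CHBP+, gave a CPM ratio of 0.998 (0.984 to 1.01). Class A was lower, as was Dnajb1 of class B. Dnaja2, the highest DNAJ gene by deposited FPKM though not on transcript length (77.4 FPKM in CHBP- against 107 for Dnajc8), had 3624 reads (77.4 FPKM) in CHBP- and 3271 reads (70.8 FPKM) in CHBP+, and Dnaja1, its inducible relative, had 1673 reads (7.35 FPKM) and 1338 reads (5.95 FPKM), with log2 ratios of -0.13 and -0.26. Dnaja3 (Tid1), the class A protein of mitochondria, had 1003 and 880 reads and a log2 ratio of -0.16, and overlaps Coro7, which had 1591 and 1747 reads. All 3 were lower by the test (100%, against 27.8% of all genes). Dnajb1, the classical HSP40 that pairs with inducible HSP70, had 921 reads (24.7 FPKM) in CHBP- and 730 reads (19.8 FPKM) in CHBP+, a log2 ratio of -0.30 (adjusted p = 4.15e-05, exact read test). Dnajb6, which suppresses aggregation and whose promoter window holds the run printed above, had 11.3 and 10.2 FPKM and a log2 ratio of -0.14 (adjusted p = 0.0115, exact read test). Of the windows of its transcript, 74.0% occur elsewhere in mm9. Dnajb12 had 5.72 and 5.61 FPKM and did not pass.

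Class C held the widest spread, with log2 ratios from -0.76 to 0.59. Dnajc13 (RME-8), a J-domain protein of endosomes, had 2064 reads (8.004 FPKM) in CHBP- and 3205 reads (12.6 FPKM) in CHBP+, a log2 ratio of 0.59 (adjusted p = 1.48e-57, exact read test) and a CPM ratio of 1.57 (1.49 to 1.66). By the log2 ratio it lay just past the 1.5-fold line, and the nearest entries inside that line were Dnajc25 at 0.55, Hspe1 at -0.55 and Hspa1a at -0.55. The pseudocount kept Dnajc25 and Hspa1a inside. Their CPM ratios, 1.95 (1.55 to 2.47) and 0.617 (0.495 to 0.766), were past 1.5-fold, while that of Hspe1 (0.674) was not. Dnajc19-ps, past the line in the other direction at -0.76, rested on 28 and 14 reads and did not pass the exact read test (adjusted p = 0.0896). Dnajc25, named here for its place next to the line, had 114 and 220 reads (adjusted p = 1.75e-08, exact read test). It overlaps the entry Gm20503 over 22364 bases, which had 292 and 252 reads, and with both summed the log2 CPM ratio was 0.24 (0.041 to 0.43). Among the class C genes at the highest levels, Dnajc15 (a mitochondrial inner membrane protein) had 65.3 and 51.4 FPKM, Dnajc9 (a histone co-chaperone) 37.4 and 32.8 FPKM, and Dnajc8 (a splicing-associated protein) 30.5 and 26.6 FPKM. These 3 were lower by the test, with log2 ratios of -0.34, -0.18 and -0.19. Dnajc10 and Dnajc14 differed by 0.033 and 0.067 and did not pass.

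**Figure D3:**
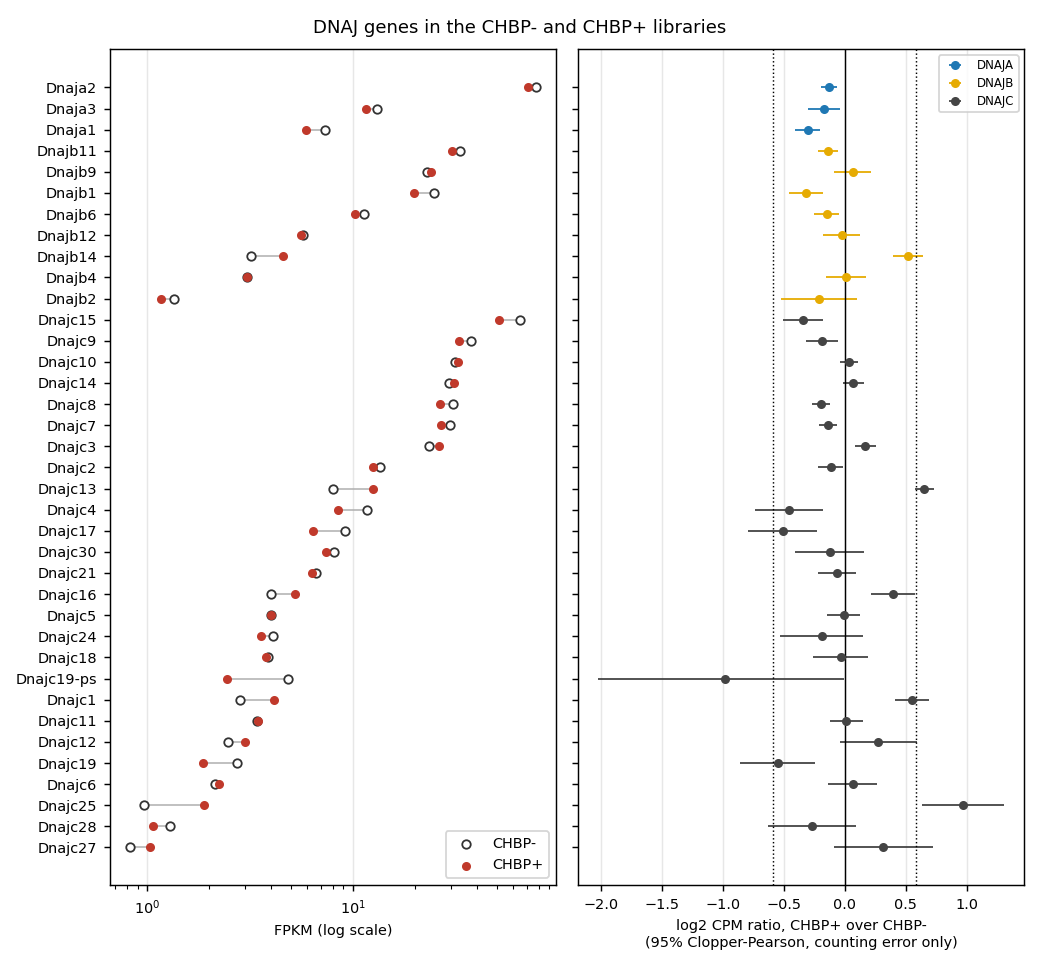
FPKM of each DNAJ entry with at least 1 FPKM in a library (left, log axis; open circles CHBP-, filled circles CHBP+, 1 library each) and the log2 CPM ratio, CHBP+ over CHBP- (right; points with 95% Clopper-Pearson intervals, dotted lines at 1.5-fold). The 3 class A genes lie left of 0, and class C spans from Dnajc19-ps, with 28 and 14 reads and a wide interval, to Dnajc25 and Dnajc13 on the right.

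Grouped by compartment, the 9 genes listed for the endoplasmic reticulum stood apart in value from those listed as mitochondrial, without a test of that difference. Of the former, 4 were higher by the exact read test (Hspa13, Dnajb14, Dnajc1 and Dnajc3) and 2 lower (Hsp90b1 and Dnajb11), shares of 44.4% and 22.2% against 25.7% and 27.8% of all genes, with a median log2 ratio of 0.062. Dnajc3 (p58IPK), a co-chaperone of the stressed endoplasmic reticulum, had 2001 reads in CHBP- and 2219 in CHBP+, a log2 ratio of 0.16. Dnajb14 and Dnajc1, both membrane J-domain proteins, had 887 and 1254 reads and 732 and 1057 reads, with log2 ratios of 0.41 and 0.42. Dnajc1 overlaps Mllt10, which had 594 and 930 reads, and their reads cannot be told apart where they overlap. Dnajb11 (ERdj3) had 33.3 and 30.3 FPKM and a log2 ratio of -0.13, and Dnajb9 (ERdj4) had 705 and 728 reads and did not pass. Of 7 genes on the mitochondrial list, which need not be complete, 5 were lower by the test (71.4%, against 27.8% of all genes). None was higher, and the median was -0.16. The lower genes were Hspd1, Hspe1, Dnaja3, Dnajc15 and Dnajc19, the last with 224 and 151 reads and an overlap with Fxr1, while Hspa9 and Dnajc11 did not pass.

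Among genes listed here as induced by heat shock factor 1, those with at least 1 FPKM were lower with 1 exception. The list need not hold every gene that this factor induces, and its shares depend on which genes were chosen. Hspa8, named above as constitutive, is on it. Genes left off it did not all stand lower: Bag3 (0.0055), Chordc1 (0.018) and Hspa4l (0.39) had log2 ratios above 0. Of the 36 co-chaperones counted below, which include Bag3 and Chordc1, 24 were lower by the exact read test. Of the 10 genes on the heat-inducible list, 9 had at least 1 FPKM, and Hspb1 (HSP27) had only 1 and 2 reads. By the exact read test 8 of the 9 were lower (Hspa1a, Hspa1b, Hsp90aa1, Hspe1, Dnajb1, Dnaja1, Hspa8 and Hspd1) and Hsph1 was higher. These are shares of 88.9% and 11.1%, against 27.8% and 25.7% of all genes. The median log2 ratio was -0.30. Hsf1 itself had 420 reads (12.6 FPKM) in CHBP- and 306 reads (9.31 FPKM) in CHBP+, a log2 ratio of -0.40 (adjusted p = 0.000204, exact read test), and Hsf2 had 302 and 274 reads and a log2 ratio of -0.11 (adjusted p = 0.449, exact read test). Of the 51 genes with a promoter sequence, the 4 with the longer heat shock element did not share a direction: Hspd1, Hspe1 and Dnajb6 were lower and Hsph1 higher. Most of the 8 entries grouped by symbol as small HSPs, which need not be all of that class or only its members, were nearly silent. Hspb11 (185 and 155 reads) and Hspb6 (83 and 98 reads) reached 1 FPKM and did not pass the test, Hspb8 had 10 and 12 reads, and the other 5 had at most 2 reads in a library.

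Partners of the chaperones that are not among the 94 entries were counted from a separate list of 36 co-chaperones. All 36 had at least 1 FPKM, 24 were lower (66.7%, against 27.8% of all genes) and 2 higher (5.56%, against 25.7%) by the exact read test, and the median log2 ratio was -0.20 against -0.028 over all genes. The 6 prefoldin genes, which hand unfolded actin and tubulin to TRiC, were all lower by the test (100%, against 27.8%), with a median of -0.47. Pfdn4 had 420 and 240 reads (log2 ratio -0.67) and Pfdn6 646 and 409 reads (-0.59), and these 2 of the 36 were at least 1.5-fold lower.

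The log2 ratios followed gene length, in chaperones as in the table as a whole. Over the 66 entries the log2 ratio had a Spearman's rho of 0.46 with the deposited gene length and 0.60 with the longest GENCODE M1 transcript. Over all genes with at least 1 FPKM it was 0.48 and, for 10508 genes with a transcript, 0.66. These correlations run across genes that share the same libraries, and genes are not independent replicates. Among DNAJ genes without the pseudogene entry, 11 of 14 with a deposited length under 5000 bases were below 0, with a median of -0.15, and 11 of 22 longer ones were, with a median of -0.0012. Dnajc13, Dnajb14, Dnajc1 and Hspa4l, each higher in CHBP+, had deposited lengths of 15643, 16886, 15628 and 13927 bases, while Hspe1, lower in CHBP+, had 1738.

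With the trend on deposited length removed, 45 of the 66 were below 0 with a median of -0.095, and with the trend on transcript length removed 47 were, with a median of -0.051, where 52.9% and 51.9% of all genes were below 0. No entry was then past 1.5-fold in either direction, and Dnajc13 stood at 0.36 and 0.24. The heat-inducible list had 8 of 9 below 0 with medians of -0.28 and -0.26, and Hspa1a stood at -0.44 and -0.51, Hsp90aa1 at -0.34 and -0.31. Hsph1, the exception on that list, fell from 0.22 to 0.065 and 0.076. The TRiC median was -0.20 with 8 of 8 below 0 for deposited length, and -0.094 with 7 of 8 below 0 for transcript length. The median of the endoplasmic reticulum genes was 0.0999 and -0.016, so its sign depended on the length used. Removing the deposited length trend changed the sign of 7 of the 66, 1 of which had passed the exact read test, and removing the transcript length trend that of 13, 5 of which had passed. Among those that had passed, with the transcript length trend removed, Hspa4l (-0.059), Dnajb14 (-0.042) and Dnajc3 (-0.016) turned below 0 and Cct6a (0.039) above it, and Dnajc9 turned above 0 with either trend removed (0.0053 and 0.011). Hspe1 stood at -0.37 and -0.26, Hspd1 at -0.036 and -0.065, and Dnajc15, with a deposited length of 648 bases, at -0.092 and -0.0063. Prefoldin stood at -0.31 and -0.20. Which length-dependent step lies behind the trend was not tested.

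**Figure D4:**
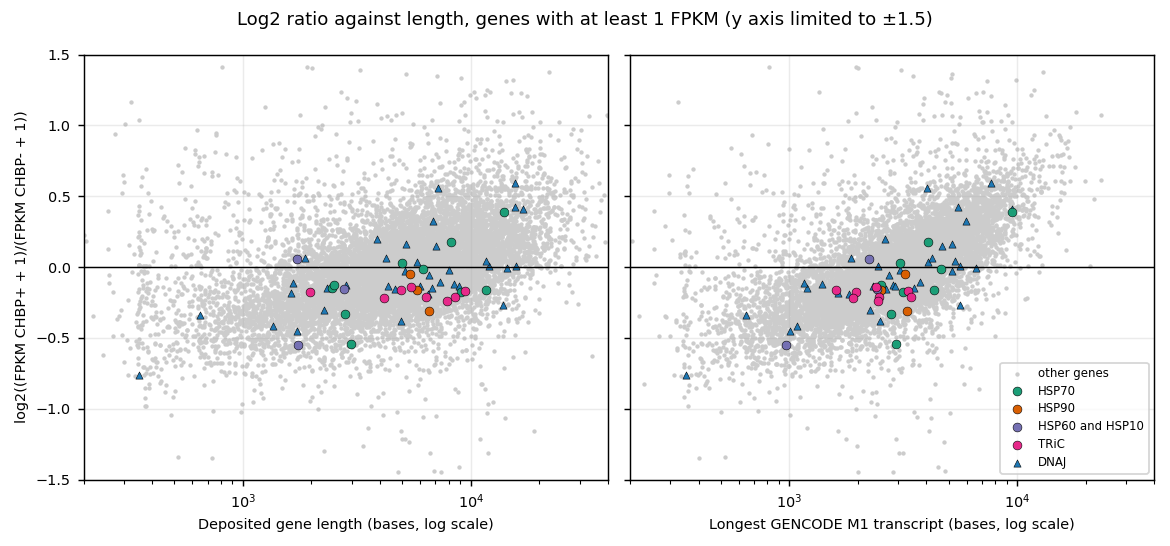
Log2 ratio of FPKM + 1, CHBP+ over CHBP-, against deposited gene length (left) and longest GENCODE M1 transcript (right), both on log axes, for genes with at least 1 FPKM in a library (grey) and for chaperones in colour; the y axis is limited to 1.5 on either side of 0. Both clouds climb from short to long genes (Spearman's rho 0.48 and 0.66), and TRiC, HSP90 and the HSP60 and HSP10 genes lie mostly below 0.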

How the data were processed

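mRNA of CHBP- and CHBP+ M-MDSC was sequenced, 1 library each, grouped by the labels. The authors trimmed adapters and low-quality bases with Seqtk and removed short and ribosomal RNA reads. The study's methods name TopHat2, HT-seq and mm9, whereas the submitters' processing notes name HISAT2 2.0.4, Cufflinks 2.1.1, Cuffdiff and GRCm38, so which tools made the table is uncertain. The spans of 66 of 66 chaperone entries overlapped the RefSeq gene of that symbol on GRCm38.p6, against 10 of 66 on mm9, and coordinates are given as deposited. The handling of multi-mapping and strand is not given in the sources used here, so counts of overlapping genes and close paralogs are uncertain. The authors deposited raw read counts and FPKM, which are that count over a gene length and the library total, with the same length in both libraries (within 0.001 for 15864 genes). The origin of these lengths is not given.

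The log2 ratio used a pseudocount of 1 FPKM, and genes that reached 1 FPKM in either library were kept. No model with replicate spread was fitted, and DESeq, named in the methods, was not repeated. The exact read test was binomial and two-sided, set against the library totals and adjusted by Benjamini-Hochberg over the 14162 genes of 10 reads or more. Reads are not independent molecules, so tests and intervals cover counting error only. Length trends were third-degree polynomials fitted over all genes kept. GENCODE M1 (mm9) gave the length of the longest transcript of any type by gene identifier. The 75-base windows searched in mm9 came from the longest protein-coding transcript, which was shorter for some genes (for Hspa8, 2394 against 3158 bases). The alternatives were other pseudocounts, filters, fold thresholds and scalings (edgeR 4.0.16 in R 4.3.3 for trimmed mean of M values), the deposited length trend, and leaving out overlapping genes. The transcript length trend and leaving out pseudogene entries were added after seeing the data. The members and lists were chosen with earlier results of these data known. Named genes were the HSP, TRiC and HSF genes with at least 1 FPKM, and the DNAJ and small HSP genes past 1.5-fold or among the 5 highest of their class, besides the members of the listed compartments, the heat-inducible list and co-chaperones past 1.5-fold. Bag3 and Chordc1 were named in addition, as genes left off the heat-inducible list. Python 3.11.15, numpy 2.4.6, pandas 2.3.3, scipy 1.17.1 and matplotlib 3.10.9 were used. Tested on simulated data of this comparison, the exact read test recovered 156 of 200 changed genes, 145 of 145 with at least 200 reads, and called 7 of 13788 unchanged genes.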

Additional observations from a re-analysis of the deposited data

How the results depend on the processing

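No paired analysis was possible because each condition had 1 library, which also leaves none to omit. The count of chaperones past 1.5-fold, 1 higher and 1 lower, became 2 and 2 with a pseudocount of 0.1 FPKM, and 0 and 0 with a fold of 2 and with either length trend removed. It was 2 higher with CPM, 0 higher without overlapping genes, 0 lower with a minimum of 5 FPKM and 0 lower without pseudogene entries. The counts of the exact read test, 9 higher and 31 lower, became 2 and 1 when the CPM ratio also had to be at least 1.5-fold. These were Dnajc13 and Dnajc25 (higher) and Hspa1a (lower), a set on another measure than the 1 and 1 above. The HSP90 median was -0.13 after centring on the median of all genes, -0.23 without overlapping genes and -0.079 with the transcript length trend removed. That of HSP60 and HSP10 was -0.036 with the deposited and -0.065 with the transcript length trend removed, -0.36 without pseudogene entries, and 0.055 without overlapping genes, where Hspd1-ps3 alone was left. The TRiC median was -0.094 with the transcript length trend removed. Under trimmed mean of M values the log2 ratio of summed reads was -0.095 for all entries and 0.012 for DNAJ, which turned from -0.0032. For HSP60 and HSP10 it was -0.22 without pseudogene entries. Of the entries that had passed the exact read test, removal of the deposited length trend turned Dnajc9 (0.0053), and removal of the transcript length trend turned Dnajc9 (0.011), Hspa4l (-0.059), Dnajb14 (-0.042), Dnajc3 (-0.016) and Cct6a (0.039). In all, 7 and 13 of the 66 changed sign. Of the 66 single log2 ratios, 42 and 36 moved by less than their counting error under these trends, and 66 did under trimmed mean of M values. The cause of these shifts was not tested. Depth limits genes such as Hspa1l and Dnajc19-ps, and without replicates no difference can be set against the spread between cultures.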

Other observations

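Of the 66 chaperone entries with at least 1 FPKM, 21 overlap another entry with at least 10 reads, and without strand their reads cannot be told apart. The overlap is 16735 bases for Dnajc1 and Mllt10 and 39789 bases for Dnaja3 and Coro7. Dnajc19 overlaps Fxr1 over 14303 bases, and Fxr1 had 2261 reads in CHBP- and 2019 in CHBP+. Tcp1 overlaps Mrpl18 over 645 bases, with 1118 and 874 reads for Mrpl18.

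For 37 of 64 chaperone transcripts, no 75-base window was found elsewhere in mm9.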
